A study of Rattus norvegicus with 3 samples.

Results

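The 10 genes described here encode the main cytosolic and mitochondrial heat shock chaperones: Hspa8, Hspa4, Hsph1, Hsp90aa1, Hsp90ab1, Dnaja1 and Dnajb1 in the cytosol, and Hspa9, Hspd1 and Hspe1 in the mitochondrial matrix. They were chosen by symbol, and each of the 10 matched 1 of the 23098 features in the count tables. The data were single-nucleus RNA sequencing libraries from punches of the nucleus accumbens, a ventral striatal region involved in motivation and anxiety-related behaviour, of outbred Wistar rats aged 16 weeks. Rats were sorted by their behaviour on an elevated plus maze and in an open field with an unfamiliar object. The groups were untreated rats of low anxiety, untreated rats of high anxiety, and rats of high anxiety that had received urolithin A, a gut-microbial metabolite known as an inducer of mitophagy, for 2 months. Each group was 1 library made from nuclei of 5 pooled brain hemispheres, and the labels give no sex. There were therefore no replicates, no test between groups was possible, and every interval given here covers counting error only. The comparisons of high with low anxiety and of treated with untreated high anxiety rats share the high anxiety library.

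Hspa8 (also called HSC70) is the constitutive HSP70 protein, which binds exposed hydrophobic stretches of unfolded proteins, uncoats clathrin-coated vesicles and delivers proteins to lysosomes and to mitochondria. J-domain proteins such as Dnaja1 and Dnajb1 bring it clients and stimulate its ATPase, while the HSP110 proteins Hspa4 and Hsph1 exchange its nucleotide, and clients can pass on to the HSP90 proteins Hsp90aa1 and Hsp90ab1, which mature kinases and steroid receptors. In mitochondria, Hspa9 (mortalin) pulls in and folds imported proteins, and Hspd1 (HSP60) forms a folding chamber that Hspe1 (HSP10) closes.

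The files held 3619, 4066 and 3739 cell barcodes for low anxiety, high anxiety and urolithin A, with 16728049, 22095390 and 19162530 unique molecular identifiers (UMIs). After filtering and removal of 97, 116 and 99 called doublets, 3379, 3694 and 3421 nuclei were used, with medians of 3952, 4549.5 and 4726 UMIs per nucleus. Pairs of libraries shared 4 to 6 barcode sequences. Nuclei formed 26 clusters, and cell classes were rebuilt from marker genes, so each name means only "like" that cell type. The 9 classes compared had at least 100 nuclei in every library: D1-like medium spiny neurons (753, 654 and 757 nuclei), D2-like medium spiny neurons (557, 509 and 523), eccentric medium spiny neuron-like cells (276, 307 and 219), GABAergic interneuron-like cells (161, 176 and 362), oligodendrocyte-like cells (540, 778 and 695), oligodendrocyte precursor-like, astrocyte-like and microglia-like cells, and an unnamed cluster called here by its leading genes Klk6, Slc5a11 and Rasgrp3 (164, 265 and 230). That cluster had 12 of 12 oligodendrocyte markers at least 2-fold up, but none of them among its top 10 genes, and Enpp6, a marker of committed precursors, was among them. Its values stand beside those of the oligodendrocyte-like cells. Among the D1-like nuclei, 339, 262 and 223 came from a cluster led by Nmb, Rasgrf2 and Drd3. It had 5 D1 markers at least 2-fold up and none among its top 10 genes. Of the interneuron-like nuclei, 79, 62 and 223 came from a cluster led by Spp1, Crh and Klhl1. It had 4 of 14 interneuron markers at least 2-fold up and none among its top 10 genes. Cluster values of the interneuron-like class are given below for Hspa8, Hsp90ab1 and Dnaja1, and of D1-like neurons for Hspe1 only. Counts of members by class were not split by cluster. Levels are UMIs of the gene per 1000000 UMIs of the class in that library (CPM), in the order low anxiety, high anxiety, urolithin A unless stated. A gene was measured in a class where at least 1 of the 2 libraries compared held 100 UMIs of it, and a change of at least 5/4-fold, 0.32 on the log2 scale, is called past 5/4 here.

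Heat shock genes are known for heat shock elements in their promoters, inverted repeats of GAA and TTC bound by heat shock factor 1. RefSeq's promoter table on build GRCr8 held 9 of the 10 genes, and Hsp90aa1 had no entry. The 4 windows printed here, 250 bases up to the transcription start, are those that held a 3-unit element, in which GAANNTTC and TTCNNGAA overlap by the unit they share, in either order. Both strands were searched, and capitals mark every match to GAANNTTC or TTCNNGAA. They are Hspa8 at chr8:50080264-50080513 on the plus strand, Hsph1 at chr12:10427118-10427367 on the plus strand, Hspd1 at chr9:64084038-64084287 on the minus strand, and Hspe1 at chr9:64084077-64084326 on the plus strand.
Hspa8: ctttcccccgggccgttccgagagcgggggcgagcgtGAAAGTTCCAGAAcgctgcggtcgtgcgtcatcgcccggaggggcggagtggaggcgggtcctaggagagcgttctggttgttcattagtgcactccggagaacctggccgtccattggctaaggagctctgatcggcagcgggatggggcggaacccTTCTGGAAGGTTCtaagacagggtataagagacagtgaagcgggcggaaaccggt
Hsph1: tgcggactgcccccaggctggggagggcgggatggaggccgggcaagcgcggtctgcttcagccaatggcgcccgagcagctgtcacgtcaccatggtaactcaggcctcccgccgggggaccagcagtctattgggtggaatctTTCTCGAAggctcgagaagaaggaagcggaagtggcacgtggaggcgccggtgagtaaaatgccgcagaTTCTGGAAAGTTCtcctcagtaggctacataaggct
Hspd1: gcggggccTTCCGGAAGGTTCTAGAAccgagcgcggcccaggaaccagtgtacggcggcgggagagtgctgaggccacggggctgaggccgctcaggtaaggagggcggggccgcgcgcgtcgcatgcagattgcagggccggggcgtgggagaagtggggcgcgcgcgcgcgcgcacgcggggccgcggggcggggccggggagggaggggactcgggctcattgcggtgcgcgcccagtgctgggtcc
Hspe1: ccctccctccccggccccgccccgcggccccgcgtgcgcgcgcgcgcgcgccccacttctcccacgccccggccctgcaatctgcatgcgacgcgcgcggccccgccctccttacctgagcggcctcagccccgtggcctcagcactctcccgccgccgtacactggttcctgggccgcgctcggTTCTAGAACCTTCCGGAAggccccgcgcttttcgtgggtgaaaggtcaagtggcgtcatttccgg
Hspa8 held 2 such elements, 213 to 201 and 55 to 43 bases before its start. Hspd1 held 2 that overlap, 242 to 230 and 237 to 225 bases before its start. Hspe1 also held 2 that overlap, 65 to 53 and 60 to 48 bases before its start. The same 3-unit element was found in 222 of 33469 windows of this length in the table, 0.663%, while GAANNTTC alone was in 7.23% and TTCNNGAA alone in 7.48%. Dnaja1, Dnajb1 and Hspa9 held only the shorter form, and Hspa4 and Hsp90ab1 held none in this window. Hspd1 and Hspe1 are neighbours read in opposite directions: their windows shared 211 bases, chr9:64084077-64084287, identical on opposite strands. The 3-unit elements of both genes are the same bases within that shared stretch, so their windows do not count separately. These matches are letters in a window, and binding was not measured.

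The HSP70 and HSP90 genes differed widely between cell classes. Class means of Hspa8 spanned 5.12-fold, those of Hsp90aa1 5.92-fold and those of Hsp90ab1 3.50-fold, and for all of these genes the interneuron-like cells, the oligodendrocyte-like cells and the Klk6 cluster stood above the other 6 compared classes in every library against every library. Hsp90aa1 was at 531, 769 and 671 CPM in oligodendrocyte-like cells and at 499, 507 and 559 CPM in interneuron-like cells, against 146, 184 and 189 CPM in D1-like neurons. The ranges of those 3 top classes overlapped each other, so their order among themselves was not resolved. For Hsp90ab1 the eccentric neuron-like cells came next, at 361, 413 and 492 CPM, above D1-like neurons at 266, 318 and 347 CPM.

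Hsph1, the stress-inducible HSP110, ran the other way. It was at 120.4, 134 and 114 CPM in D2-like neurons and at 112, 112 and 119 CPM in D1-like neurons, with overlapping ranges. Interneuron-like cells lay below both, at 62.2, 70.3 and 71.4 CPM, and microglia-like cells were lowest at 15.1, 24.0 and 30.7 CPM from 5, 12 and 10 UMIs. The class means of Hsph1 spanned 5.27-fold. It was also the only one of 9 measured members higher in D1-like neurons than in oligodendrocyte-like cells in every library against every library, where 46.5% of all genes were. In the other direction, 4 of 9 members were higher in oligodendrocyte-like cells, where 32.1% of all genes were. That count became 7 with no filter on nuclei and 7 with coarser clusters.

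The remaining genes varied less. Class means spanned 2.30-fold for Hspa9, 2.06-fold for Hspd1, 1.79-fold for Dnaja1, 1.76-fold for Hspa4 and 1.68-fold for Hspe1. Hspd1 was at 53.1, 54.0 and 55.3 CPM in interneuron-like cells, above the oligodendrocyte-like range of 30.4 to 49.3 CPM. Neighbouring classes overlapped throughout for Dnaja1 and Hspe1. Counted together, 7 of 9 members were higher in interneuron-like cells than in D1-like neurons in every library against every library, where 36.3% of all genes were, and the same count against D2-like neurons was 7 of 9 with 39.8% of all genes. Against eccentric neuron-like cells it was 6 of 9, with 36.6% of all genes. For 0 of 9 members did D1-like neurons lie above D2-like neurons in this way, where 11.3% of all genes did, or below, where 6.02% did.

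**Figure D1:**
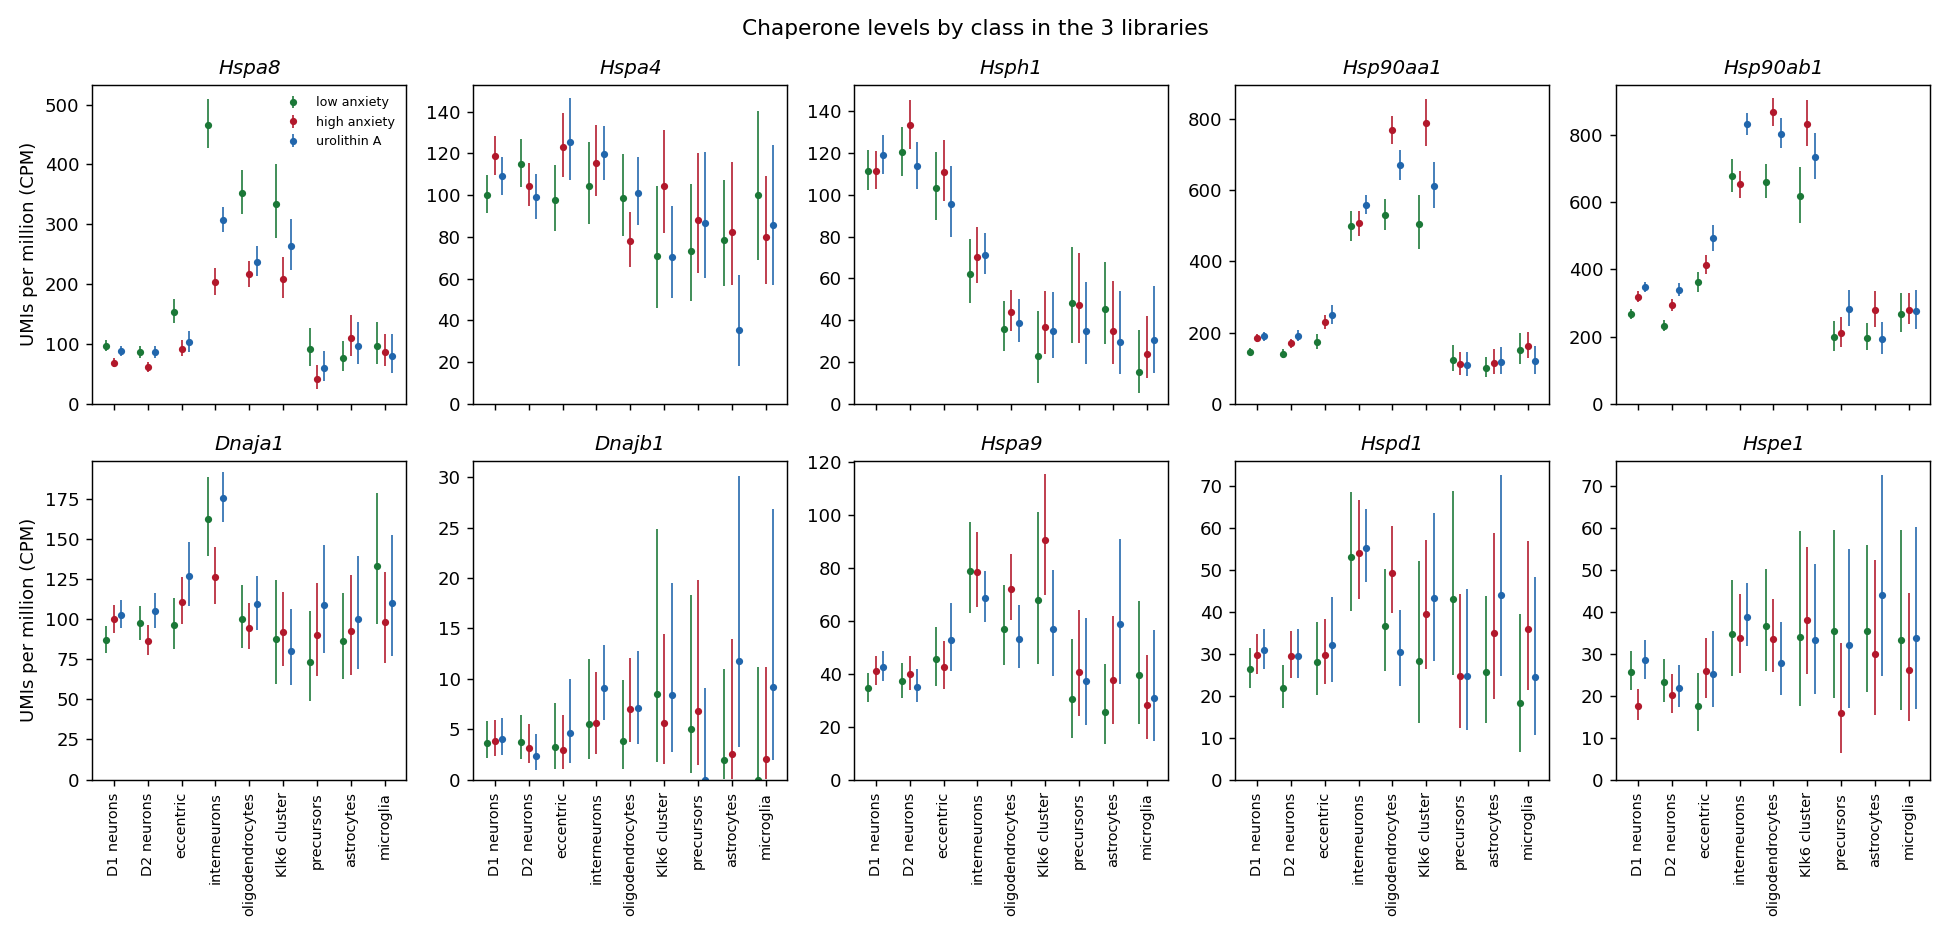
Level of each of the 10 chaperone genes in CPM (y axis, separate scale per panel) in 9 marker-defined classes (x axis) for the 3 libraries; points are values and bars are exact Poisson 95% intervals, which cover counting error only. Interneuron-like and oligodendrocyte-like cells stand above D1-like and D2-like neurons for Hspa8, Hsp90aa1 and Hsp90ab1, and below them for Hsph1.

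Hspa8 was lower in the high anxiety library than in the low anxiety library in every class where it was measured. In D1-like neurons it was at 96.5 CPM in low anxiety, 68.6 CPM in high anxiety and 87.7 CPM in urolithin A, from 454, 361 and 463 UMIs. D2-like neurons gave 86.7, 61.2 and 86.2 CPM, so in both projection neuron classes the high anxiety library was lowest. The log2 ratio of high to low anxiety was -0.49 (95% interval -0.70 to -0.29) in D1-like neurons and -0.50 (-0.76 to -0.25) in D2-like neurons. In eccentric neuron-like cells the values were 153, 91.9 and 103 CPM, with a log2 ratio of -0.74 (-1.02 to -0.46).

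Interneuron-like cells had the widest gap: 466 CPM in low anxiety, 203 CPM in high anxiety and 308 CPM in urolithin A, from 510, 324 and 879 UMIs, with a log2 ratio of high to low anxiety of -1.20 (-1.40 to -0.99). The high anxiety library was lowest in each of the 4 clusters of this class, with 530.2, 211 and 333 CPM in the cluster led by Spp1, Crh and Klhl1, 426, 168 and 273 CPM in the next, and 323, 226 and 307 and 482, 205 and 206 CPM in the others. Oligodendrocyte-like cells gave 352, 217 and 238 CPM with a log2 ratio of -0.70 (-0.91 to -0.49), and the Klk6 cluster 334, 209 and 264 CPM with -0.68 (-1.04 to -0.32). Within the oligodendrocyte-like cells the lower level lay in the large cluster, at 393, 229 and 260 CPM. A smaller cluster was at 165, 174 and 122 CPM, from 27, 41 and 30 UMIs, and did not show it. Precursor-like cells gave 91.1, 40.6 and 59.4 CPM from 36, 18 and 24 UMIs, and microglia-like cells 97.0, 86.1 and 79.7 CPM. Astrocyte-like cells differed in order, at 76.7, 110.0 and 97.1 CPM from 39, 44 and 33 UMIs. These last 3 classes held too few UMIs for a ratio to be read.

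Hspa8 was past 5/4 lower in 6 of 6 measured classes, although under a stricter filter on nuclei the D2-like ratio was -0.27, short of 5/4. Of all genes, 0.761% of those measured in at least 5 classes, 21 of 2758, were lower in this way in every class where measured (0.834% were higher). The others, picked out after their values were seen, included Vamp2, which encodes a synaptic vesicle SNARE protein, Psap, which encodes a precursor of lysosomal activators, and Clu, which encodes the secreted chaperone clusterin. Depth moved with this result: median UMIs per nucleus were 6019, 7682 and 6658 in D1-like neurons and 1745, 2169.5 and 2061 in oligodendrocyte-like cells, highest in the high anxiety library. Among the nuclei between the lower and upper quartile of UMIs of each class, chosen as a check after seeing the data, D1-like medians were 6645, 6840.5 and 6638 UMIs, and the log2 ratios of high to low anxiety were -0.38 in D1-like, -0.49 in D2-like, -0.58 in eccentric, -1.53 in interneuron-like and -0.77 in oligodendrocyte-like cells. The summed level of 10 medium spiny neuron markers in oligodendrocyte-like cells, where all 10 were detected, was 498, 317 and 337 CPM, which follows the same order as Hspa8 there. Oligodendrocyte markers in D1-like neurons summed to 220.2, 247 and 258 CPM. The part of these in the result was not tested.

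In the urolithin A library Hspa8 lay above the untreated high anxiety library in 6 of 6 classes and past 5/4 in 4. The log2 ratio was 0.36 (0.15 to 0.56) in D1-like neurons, 0.50 (0.24 to 0.75) in D2-like neurons, 0.60 (0.41 to 0.79) in interneuron-like cells and 0.34 (0.00 to 0.67) in the Klk6 cluster. In eccentric neuron-like cells it was 0.16 (-0.17 to 0.49) and in oligodendrocyte-like cells 0.13 (-0.07 to 0.34), and both intervals include 0. The D1-like ratio fell to 0.14, short of 5/4, when nuclei were thinned to the same number of UMIs. The Klk6 cluster ratio fell to 0.18 under a stricter filter on nuclei and 0.21 among nuclei between the UMI quartiles, also short of 5/4. The D2-like and interneuron-like ratios stayed past 5/4 in every other setting, with lowest values of 0.38 and 0.54. Against low anxiety, the urolithin A library had a log2 ratio of -0.01 in D2-like neurons and -0.14 in D1-like neurons. It was past 5/4 lower in eccentric neuron-like cells (-0.58), interneuron-like cells (-0.60), oligodendrocyte-like cells (-0.57) and the Klk6 cluster (-0.34).

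Both cytosolic HSP90 genes lay to the other side of 0 from Hspa8 between the untreated libraries in most classes. Hsp90aa1, the more inducible form, was at 146 CPM in low anxiety and 184 CPM in high anxiety in D1-like neurons, a log2 ratio of 0.33 (0.19 to 0.47). In D2-like neurons it was at 141, 169.9 and 191 CPM, with a ratio of high to low anxiety of 0.27, under the 5/4 line. Under a stricter filter on nuclei the D1-like ratio was 0.26, short of 5/4, and the D2-like ratio 0.09. Eccentric neuron-like cells gave 174, 229 and 250.4 CPM with a ratio of 0.40 (0.18 to 0.62). The low anxiety library was lowest in each of these neuron classes and the urolithin A library highest. In D1-like neurons, however, the ratio of urolithin A to high anxiety was only 0.04. It kept its sign in 5 of 9 other settings, with values from -0.23 to 0.06.

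In oligodendrocyte-like cells and the Klk6 cluster the order of the libraries was another. Oligodendrocyte-like cells had 531, 769 and 671 CPM, a log2 ratio of high to low anxiety of 0.54 (0.39 to 0.68), and the Klk6 cluster 507, 789 and 613 CPM, a ratio of 0.64 (0.39 to 0.89). There the high anxiety library was highest, and in the Klk6 cluster urolithin A was past 5/4 below it, at -0.37 (-0.56 to -0.17). Interneuron-like cells, where the ratio of Hspa8 was lowest, gave a ratio of only 0.02 for Hsp90aa1, which kept its sign in 4 of 9 other settings, with values from -0.27 to 0.06. Against low anxiety, urolithin A was above 0 in 6 of 6 classes and past 5/4 in 4, with 0.37 in D1-like, 0.44 in D2-like, 0.52 in eccentric and 0.34 in oligodendrocyte-like cells. Under the stricter filter the D1-like and D2-like ratios fell to 0.23 and 0.21, short of 5/4. The eccentric and oligodendrocyte-like ratios were 0.76 and 0.61 there.

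Hsp90ab1, the constitutive form, followed much the same pattern. It was at 266, 318 and 347 CPM in D1-like neurons and at 232, 293 and 338 CPM in D2-like neurons, with log2 ratios of high to low anxiety of 0.26 and 0.34. Oligodendrocyte-like cells had 661, 867 and 803 CPM (0.39), the Klk6 cluster 617, 833 and 734 CPM (0.43), and eccentric neuron-like cells a ratio of 0.20. Of 8 measured classes 7 lay above 0 and 4 past 5/4. Interneuron-like cells were the exception, at 679, 653 and 832 CPM: the untreated libraries differed by -0.06, and urolithin A lay above high anxiety by 0.35. In each of the 4 interneuron-like clusters urolithin A was highest, with 712, 603 and 821 CPM in the Spp1, Crh and Klhl1 cluster and 568, 664 and 813, 549, 653 and 854, and 871, 801 and 907 CPM in the others.

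The smaller glial classes did not share 1 pattern for Hsp90ab1. Astrocyte-like cells had 197, 277 and 191 CPM from 100, 111 and 65 UMIs, so the high anxiety library alone was high, with 0.50 against low anxiety and -0.54 for urolithin A against it. The latter became 0.11 with no filter on nuclei and no doublet removal. Precursor-like cells had 197, 210 and 282 CPM from 78, 93 and 114 UMIs, with urolithin A alone high, by 0.43 against high anxiety and 0.51 against low anxiety. The ratio to high anxiety fell to 0.13 among nuclei between the UMI quartiles. The ratio to low anxiety fell to 0.23 under a stricter filter on nuclei. Both are short of 5/4. Microglia-like cells had 267, 280.3 and 276 CPM, with no ratio past 5/4.

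**Figure D2:**
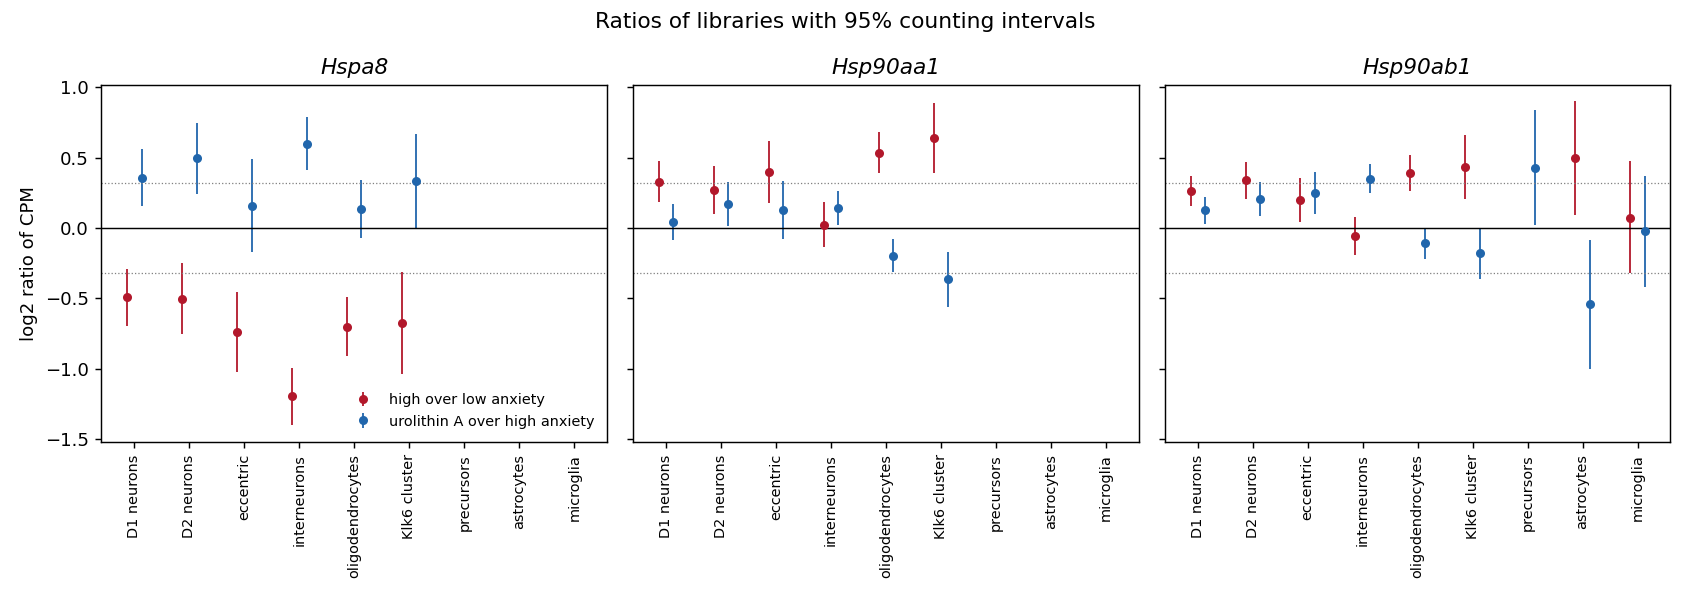
Log2 ratios (y axis) of Hspa8, Hsp90aa1 and Hsp90ab1 in each class where the gene was measured (x axis). Colours mark the high against the low anxiety library and the treated against the untreated high anxiety library. Bars are exact 95% intervals covering counting error only, and dotted lines mark 5/4-fold in either direction. Hspa8 lies below the lower dotted line in 6 of 6 classes in the first comparison and above 0 in 6 of 6 in the other. Hsp90aa1 lies above 0 in 6 of 6 in the first, by only 0.02 in interneuron-like cells.

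The HSP110 genes passed 5/4 in few classes. Hsph1 did so in no class and no comparison, with log2 ratios from -0.23 to 0.20. Hspa4 was at 100.1, 119 and 109 CPM in D1-like neurons and at 115, 105 and 98.9 CPM in D2-like neurons, with log2 ratios of high to low anxiety of 0.25 and -0.14. Eccentric neuron-like cells gave 97.5, 123 and 126 CPM, a ratio of high to low anxiety of 0.34 (0.04 to 0.64), with the low anxiety library low. In oligodendrocyte-like cells the high anxiety library was low instead, at 98.4, 78.0 and 101 CPM, a ratio of -0.34 (-0.71 to 0.04) that includes 0 and that became 0.23 under a stricter filter on nuclei.

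Among the J-domain proteins, Dnaja1 passed 5/4 in interneuron-like cells in both comparisons with the high anxiety library. It was at 163, 126 and 176 CPM there. The log2 ratio was -0.37 (-0.67 to -0.07) for high against low anxiety and 0.48 (0.24 to 0.72) for urolithin A against high anxiety. Under a stricter filter on nuclei these ratios were -0.27 and 0.26, both short of 5/4. The untreated libraries had the same order as for Hspa8. That order lay mainly in the Spp1, Crh and Klhl1 cluster, at 196, 117 and 192 CPM. The other clusters gave 142, 132 and 159, 135, 137 and 127, and 106, 119 and 144 CPM, from 16 to 70 UMIs each. In D1-like neurons it was at 86.9, 99.9 and 103 CPM, in D2-like neurons at 97.5, 86.5 and 105 CPM and in oligodendrocyte-like cells at 100.3, 94.7 and 109 CPM, with no ratio of high to low anxiety past 5/4. Urolithin A lay above high anxiety in 5 of 5 measured classes, past 5/4 in interneuron-like cells only. Dnajb1, the HSF1-inducible J-protein, was measured in no class: it had 17, 20 and 21 UMIs in D1-like neurons, 13, 12 and 8 in D2-like neurons and 4, 13 and 11 in oligodendrocyte-like cells. Differences in Dnajb1 were not detectable at this depth. It had 0 UMIs in precursor-like cells of urolithin A, where a floor of 3 UMIs equals 7.42 CPM.

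The mitochondrial chaperones gave different orders of the libraries. Hspe1 was at 25.7, 17.7 and 28.4 CPM in D1-like neurons, from 121, 93 and 150 UMIs, so the high anxiety library was low: -0.54 (-0.95 to -0.14) against low anxiety, and 0.69 (0.30 to 1.08) for urolithin A against it. Both clusters of D1-like neurons showed this order, with 26.2, 19.1 and 28.6 CPM and 25.2, 15.9 and 28.1 CPM. In D2-like neurons Hspe1 was at 23.2, 20.1 and 21.8 CPM from 80, 77 and 76 UMIs, which is under the minimum for a ratio. Hspd1, its partner in the folding chamber and its neighbour across the shared promoter, was at 26.4, 29.6 and 30.9 CPM in D1-like neurons, a ratio of high to low anxiety of 0.17. In D2-like neurons it was at 21.8, 29.5 and 29.6 CPM, with 0.44 (0.01 to 0.88), the low anxiety library being low. The difference between the 2 partners in D1-like neurons was not tested.

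Hspa9 was at 34.4, 40.8 and 42.6 CPM in D1-like neurons and at 78.7, 78.4 and 68.6 CPM in interneuron-like cells, with no ratio past 5/4. In oligodendrocyte-like cells the high anxiety library was highest, at 56.9, 72.0 and 53.1 CPM. The ratio to low anxiety was 0.34 (-0.11 to 0.81), which includes 0, and urolithin A lay below high anxiety by -0.44 (-0.85 to -0.03). The share of all UMIs of the class that came from the mitochondrial genome was 0.835%, 1.00% and 1.12% in D1-like neurons. In D2-like neurons it was 0.687%, 0.849% and 1.10%. In D1-like neurons, among measured members, that order is also the one of Hspd1, Hspa9, Dnaja1, Hsp90aa1, Hsp90ab1 and Hsph1, but not that of Hspe1, Hspa8 or Hspa4. For Hsph1 the log2 ratio of high to low anxiety was only 0.0015. Of the genes in that order, only Hsp90ab1 kept urolithin A above high anxiety in 9 of 9 other settings. The part of the mitochondrial share in these results was not tested.

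Counted over gene and class pairs, 41 of 90 were measured for high against low anxiety; 11 were past 5/4 higher, where 10.5% of all measured pairs were, and 9 lower, where 10.1% were. Of the 11 higher, 8 were Hsp90aa1 or Hsp90ab1, and 6 of the 9 lower were Hspa8. For urolithin A against high anxiety 44 pairs were measured, 9 higher (9.84% of all pairs) and 3 lower (6.68%), and for urolithin A against low anxiety 42, of which 11 were higher (10.7%) and 4 lower (8.14%). All 4 of these last lower pairs were Hspa8. Both directions of the first comparison were more frequent among the members than over all genes, and the median log2 ratio of the measured member pairs was 0.15, 0.08 and 0.16 in the 3 comparisons. Pairs of 1 gene in several classes come from the same libraries and are not independent.

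By class, the members past 5/4 for high against low anxiety were 1 higher and 2 lower of 9 in D1-like neurons, where 7.54% and 11.4% of all genes were. They were 2 and 1 of 8 in D2-like neurons (7.72% and 10.5% of all genes) and 2 and 1 of 6 in eccentric neuron-like cells (10.5% and 7.69%). Interneuron-like cells had 0 higher and 2 lower of 7 (14.8% and 12.1%), both of them, Hspa8 and Dnaja1, cytosolic partners in 1 folding cycle. Of these, Dnaja1 fell short of 5/4 under a stricter filter on nuclei, at -0.27. Oligodendrocyte-like cells had 3 and 2 of 6 (12.1% and 6.85%) and the Klk6 cluster 2 and 1 of 3 (14.3% and 5.99%). For urolithin A against high anxiety, D1-like neurons had 2 higher and 0 lower of 9 (8.62% and 4.41% of all genes), which were Hspa8 and Hspe1, and D2-like neurons 1 and 0 of 8 (9.86% and 4.83%), which was Hspa8. Eccentric neuron-like cells had 0 and 0 of 6 (8.53% and 8.09%). Interneuron-like cells had 3 higher and 0 lower of 9 (18% and 9.15%), namely Hspa8, Hsp90ab1 and Dnaja1. Under the stricter filter Hsp90ab1 and Dnaja1 fell short of 5/4 there, at 0.29 and 0.26. Oligodendrocyte-like cells had 1 and 1 of 6 (3.78% and 5.24%), Hspa4 higher and Hspa9 lower, and the Klk6 cluster 1 and 1 of 3 (5.34% and 8.01%), Hspa8 higher and Hsp90aa1 lower. Under the stricter filter the Hspa4 ratio was 0.12 and those of the Klk6 cluster 0.18 and -0.27, all short of 5/4. The Hspa9 ratio was -0.80 there.

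**Figure D3:**
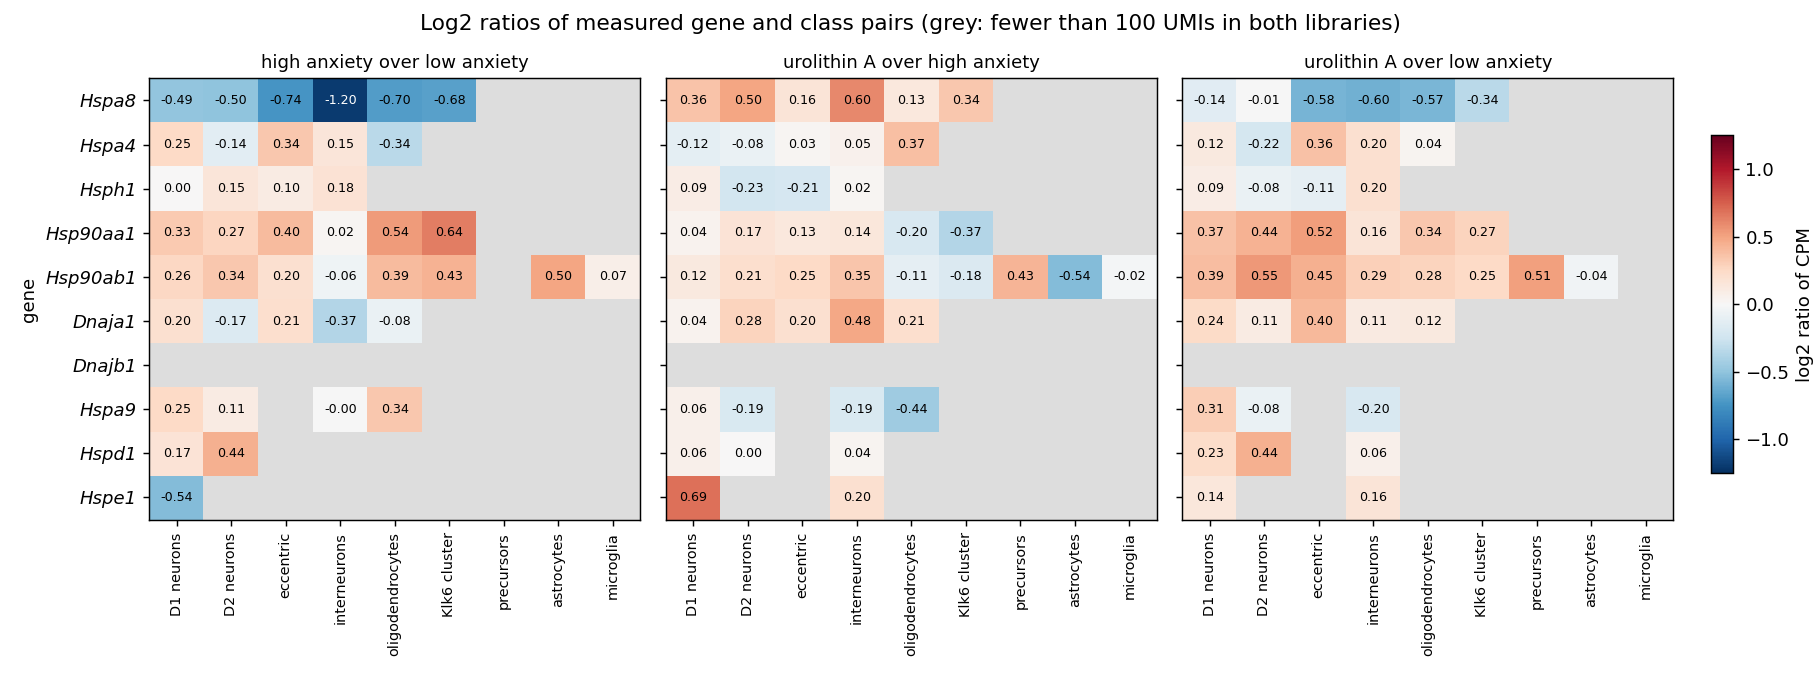
Log2 ratio of each chaperone gene (y axis) in each class (x axis) for high over low anxiety, urolithin A over high anxiety, and urolithin A over low anxiety, on a colour scale from lower to higher; grey marks pairs under 100 UMIs in both libraries. In the first of these the Hspa8 values are below 0 in 6 of 6 measured classes, the Hsp90aa1 values are above 0 in 6 of 6, with the interneuron-like value of 0.02 changing sign between settings, and the Hsp90ab1 values in 7 of 8.

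Across the 27 combinations of 9 classes and 3 libraries, the gene whose log level was most like that of Hsp90aa1 among 7472 genes was Hsp90ab1 and the reverse held too, with a Pearson correlation of 0.97. Hspa8 correlated with Hsp90aa1 at 0.86 and with Hsp90ab1 at 0.84, although within classes Hspa8 and the HSP90 genes mostly lay to opposite sides of 0 between the untreated libraries. The genes most like Hspa8 were Ubb, which encodes a polyubiquitin, Tubb4b, a beta tubulin gene, and Tecr, a fatty acid elongation gene, each at 0.91. For Hsph1 they were Epb41l1 at 0.96 and Kcnab1 and Slc24a4 at 0.95. Hspd1 and Hspe1 correlated at 0.47, and the nearest gene to Hspd1 was Slc25a4, the mitochondrial ADP/ATP carrier gene, at 0.80. These 27 points share libraries and depth, and most of the variation in them is between classes, so the correlations are descriptions.

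Few other chaperone genes were higher in high anxiety in D1-like and D2-like neurons. Of 75 other chaperone, co-chaperone and stress factor genes measured in D1-like neurons, 2 were past 5/4 higher in high anxiety, where 7.54% of all genes were, and 10 lower, where 11.4% were. The lower ones comprised 3 of 13 HSP90 co-chaperones, 3 of 15 mitochondrial partners and proteases, 2 of 4 heat shock factors and regulators, 1 of 14 J-domain proteins and 1 of 11 endoplasmic reticulum chaperones. In D2-like neurons it was 0 higher and 6 lower of 61, against 7.72% and 10.5% of all genes. Eccentric neuron-like cells gave the other balance, with 6 higher and 2 lower of 44, against 10.5% and 7.69% of all genes. Hsf1, which encodes the heat shock transcription factor, was at 48.7, 37.8 and 36.6 CPM in D1-like neurons and at 52.8, 39.7 and 39.1 CPM in D2-like neurons. Both classes had the low anxiety library high, with log2 ratios of -0.36 and -0.41 for high against low anxiety. Dnajb2, a neuronal J-protein gene, was also lowest in high anxiety, with 44.0, 27.2 and 35.1 CPM in D1-like neurons (-0.70) and 33.7, 24.6 and 37.1 CPM in D2-like neurons (-0.45). Fkbp4, an HSP90 co-chaperone gene, was at 23.8, 13.9 and 17.1 CPM in D1-like neurons (-0.78), and Trap1, which encodes the mitochondrial HSP90, at 28.5, 19.6 and 22.0 CPM (-0.54). The 2 higher in D1-like neurons were Chordc1, an HSP90-binding protein gene, at 15.3, 21.1 and 24.8 CPM (0.46), and Cct5, a subunit gene of the TRiC chaperonin, at 55.3, 72.9 and 67.3 CPM (0.40).

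In oligodendrocyte-like cells 11 of 49 other chaperone genes were past 5/4 higher in high anxiety, where 12.1% of all genes were, and 1 lower, where 6.85% were. The higher ones were spread over the lists: 3 of 11 J-domain proteins, 2 of 6 HSP90 co-chaperones, 1 of 8 TRiC and prefoldin subunits, 1 of 1 small heat shock proteins, 2 of 7 mitochondrial partners and proteases and 2 of 12 endoplasmic reticulum chaperones. Ptges3, which encodes the HSP90 co-chaperone p23, was at 61.8, 114 and 101 CPM, a log2 ratio of 0.88 (0.47 to 1.31). Cryab, the small heat shock protein alphaB-crystallin gene, was at 249, 361 and 377 CPM, a ratio of 0.53 (0.32 to 0.75). Sdf2l1, an endoplasmic reticulum chaperone cofactor gene, was at 27.0, 54.7 and 51.1 CPM, a ratio of 1.02. In each of these the low anxiety library was low and the other libraries were close to each other, as for Hsp90ab1 in these cells.

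Between urolithin A and untreated high anxiety, the endoplasmic reticulum chaperones, which fold secreted and membrane proteins, lay mostly above 0 in D1-like, D2-like and interneuron-like cells. All 11 measured lay above 0 in D1-like neurons, 3 of them past 5/4 where 8.62% of all genes were, with log2 ratios from 0.11 to 0.44 and a median of 0.21 beside 0.03 over all genes. In D2-like neurons all 11 lay above 0 and 6 were past 5/4 where 9.86% of all genes were, with a median of 0.32, and in interneuron-like cells 7 of 11 were past 5/4 where 18% were. In oligodendrocyte-like cells 0 of 12 were past 5/4 higher where 3.78% were, and 3 lay above 0. Hspa5 (BiP), the HSP70 of this compartment, was at 241, 217 and 288 CPM in D1-like neurons, a ratio of urolithin A to high anxiety of 0.41. Dnajb9, its J-protein, was at 24.9, 25.4 and 43.4 CPM in D2-like neurons, a ratio of 0.78, with the urolithin A library alone high. Hspa13, another HSP70 gene of the secretory pathway, was at 78.6, 68.4 and 103 CPM in D1-like neurons, a ratio of 0.60. Over all the other chaperone lists together, 6 of 74 genes were past 5/4 higher in D1-like neurons (8.62% of all genes) and 10 of 62 in D2-like neurons (9.86%). It was 5 of 44 in eccentric neuron-like cells (8.53%) and 16 of 65 in interneuron-like cells (18%). Past 5/4 lower were 2, 1, 2 and 2 (4.41%, 4.83%, 8.09% and 9.15% of all genes). The endoplasmic reticulum genes are part of these counts. The difference between neurons and oligodendrocyte-like cells was not tested.

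**Figure D4:**
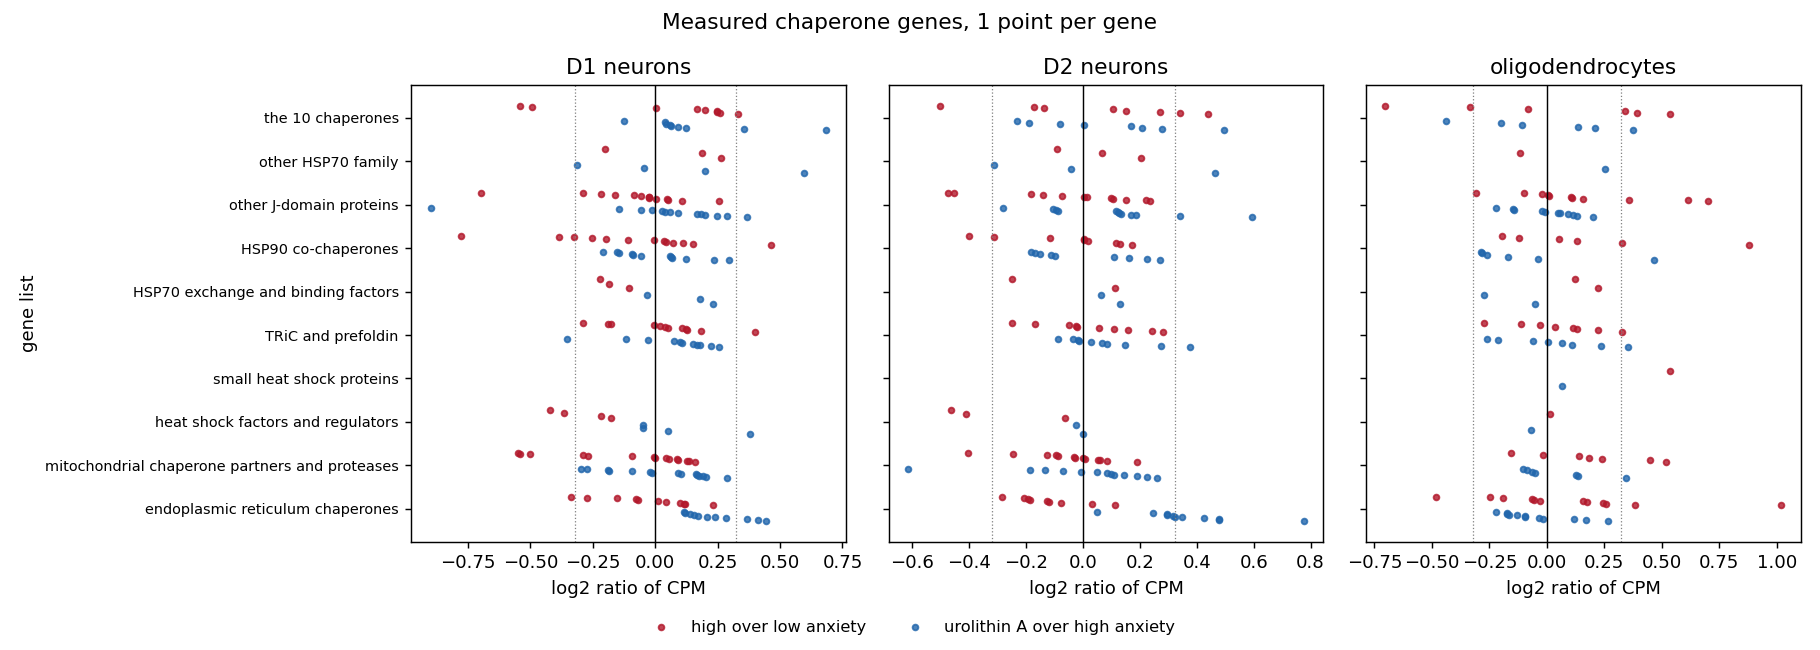
Log2 ratios of single genes (x axis), 1 point per measured gene, for the 10 chaperones and the other chaperone lists (y axis) in D1-like neurons, D2-like neurons and oligodendrocyte-like cells, for the high against the low anxiety library and for the treated against the untreated high anxiety library. Endoplasmic reticulum chaperones lie above 0 for 11 of 11 genes in D1-like and in D2-like neurons in the latter comparison.

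Several of the members have near-identical copies in the rat genome. RefSeq names 33 pseudogenes for Hspa8, 16 for Hsp90aa1, 23 for Hsp90ab1 and 20 for Hspd1. The tables held 3, 3 and 6 UMIs for Hspa8-ps23, 1, 2 and 1 for Hsp90aa1-ps16 and 1, 3 and 1 for Hsp90ab1-ps13. Reads that fit more than 1 copy may have gone uncounted, so absolute levels of these genes are uncertain, and this applies to all 3 libraries.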

How the data were processed

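Single-nucleus libraries (Chromium 3' v3.1) of the nucleus accumbens were deposited as filtered gene by barcode matrices of raw UMI counts, written by Cell Ranger, version 7.1.0 per the file headers, and, per the submitters' processing notes, on build mRatBN7.2. The sources used here do not say whether intronic reads were counted. Barcodes under 500 genes or over 5% mitochondrial UMIs were dropped, Scrublet doublets removed (0.8% expected per 1000 nuclei), counts scaled to 10000, and 2000 variable genes (without members, chaperone lists and mitochondrial genes), 30 principal components and 15 neighbours clustered by Leiden at resolution 1 (scanpy 1.11.5, leidenalg 0.10.2, seed 7). Clusters took a class name from 16 marker lists where at least 3 markers were at least 2-fold up. Member counts were summed per class and library. Levels (CPM) have exact Poisson, and ratios exact conditional binomial, 95% intervals (scipy 1.17.1), checked on simulated data. All 10 members are named; of other chaperone lists, from the 2 genes furthest from 0 past 5/4 in D1-like, D2-like and oligodendrocyte-like cells, and of similar genes, the top 3. Members and lists were chosen with earlier results of these data known. Alternatives were other nucleus filters, thinning, per-nucleus means, centring, clustering, and UMI and fold minimums.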

Additional observations from a re-analysis of the deposited data

Results flagged for a closer look

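Hspa4 lay on opposite sides of 0 in different classes between the untreated libraries: the log2 ratio of high to low anxiety was 0.34 in eccentric neuron-like cells and -0.34 in oligodendrocyte-like cells. The latter has an interval that includes 0 and became 0.23 under a stricter filter, so the contrast was lost there. The difference between these classes was not tested, since each class has 1 library per group. Hsp90ab1 did the same between urolithin A and untreated high anxiety, with log2 ratios of 0.35 in interneuron-like cells, 0.43 in oligodendrocyte precursor-like cells and -0.54 in astrocyte-like cells. The precursor-like ratio fell to 0.13 among nuclei between the UMI quartiles. The astrocyte-like ratio became 0.11 with no filter on nuclei and no doublet removal. The difference between these classes was not tested either.

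Some classes had too few nuclei in at least 1 library to be compared, yet held 100 UMIs of a member. In glutamatergic neuron-like cells (99, 198 and 21 nuclei) the log2 ratio of Dnaja1 was 0.36 (0.00 to 0.72) for high against low anxiety. Other members lay lower there in that comparison: Hspa8 at -0.76 (-1.04 to -0.48), Hsph1 at -0.43 (-0.77 to -0.09) and Hsp90aa1 at -0.29 (-0.49 to -0.09), the last on the other side of 0 from Hsp90aa1 in the compared classes. For urolithin A against high anxiety in these cells Dnaja1 had 0.52 (-0.02 to 1.04) and Hspa8 0.33 (-0.25 to 0.87), from 36 and 32 UMIs in urolithin A, and both intervals include 0. Hsp90ab1 in the same comparison had 0.94 (0.40 to 1.52) in endothelial or mural-like cells (39, 32 and 22 nuclei). In neuroblast-like or cycling cells (40, 121 and 8 nuclei) it had 0.35 (-0.60 to 1.17), from 13 UMIs in urolithin A, an interval that includes 0.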

How the results depend on the processing

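No paired analysis was possible because each group is 1 library and the labels number no replicates. The log2 ratio of Hspa8 for high against low anxiety lay below 0 in each of the 6 classes under all 9 other ways of filtering, scaling and clustering nuclei, with values from -0.58 to -0.38 in D1-like, -0.66 to -0.27 in D2-like, -1.11 to -0.58 in eccentric and -1.53 to -1.20 in interneuron-like cells, and from -0.82 to -0.46 in oligodendrocyte-like cells. The ratio of urolithin A to high anxiety for Hspa8 in eccentric neuron-like cells went to -0.06 among nuclei between the UMI quartiles and -0.03 under the stricter filter. The same ratio stayed above 0 but fell to 0.14 in D1-like neurons when nuclei were thinned. In the Klk6 cluster it fell to 0.18 under the stricter filter.

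With a fold rule of 1.5 in place of 5/4, 1 pair was higher and 4 lower for high against low anxiety, 2 higher and 0 lower for urolithin A against high anxiety, and 0 higher and 1 lower for urolithin A against low anxiety. With at least 200 UMIs, urolithin A against high anxiety gave 5 higher and 1 lower, and against low anxiety 7 higher. Lower pairs of urolithin A against high anxiety numbered 1 with no filter and no doublet removal, 7 with nuclei thinned to 2000 UMIs, 7 with at least 50 UMIs, and 5 among nuclei between the UMI quartiles, a setting chosen after seeing the data. Of 47 ratios past 5/4, 30 were still past it under the stricter filter, 39 when thinned, and 42 to 47 under the other settings of nuclei, scaling and clusters. Members higher in oligodendrocyte-like cells than in D1-like neurons in every library numbered 7 with no filter and 7 at Leiden resolution 0.5, against 4 as reported. Shares over all genes are given only for the main settings, so the counts at other settings are not set against all genes. Hspa4 in oligodendrocyte-like cells changed from -0.34 to 0.23 under the stricter filter, and Hsp90ab1 in astrocyte-like cells from -0.54 to 0.11 with no filter. The cause of these changes was not tested. Depth limits Dnajb1 in every class and most members in precursor-like, astrocyte-like and microglia-like cells.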

Other observations

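Rbm3, which encodes a cold-inducible RNA-binding protein, was among the 21 genes lower in high anxiety in every class where they were measured, and was picked out after its values were seen. It was at 244, 121 and 146 CPM in D1-like neurons, a log2 ratio of high to low anxiety of -1.02 (-1.16 to -0.87) and of urolithin A to high anxiety of 0.27. D2-like neurons had 232, 125 and 144 CPM (-0.89), eccentric neuron-like cells 223, 114 and 146 CPM, interneuron-like cells 231, 124 and 153 CPM, and oligodendrocyte-like cells 192, 129 and 145 CPM (-0.58). The high anxiety library was lowest and the urolithin A library next in each of these classes, the order of Hspa8 in the same classes.

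Cholinergic interneuron-like cells, with 15, 18 and 26 nuclei, had Hspa8 at 694, 289 and 332 CPM from 106, 70 and 86 UMIs and Hsp90ab1 at 1074, 948 and 908 CPM. The low anxiety library was highest for both. In D1-like neurons the immediate early genes Nr4a3, at 15.3, 24.7 and 24.6 CPM, and Nr4a1, at 20.0, 26.2 and 25.2 CPM, were lowest in the low anxiety library, and these were the only 2 of 13 such genes found that were measured there. In D2-like neurons Nr4a1 went the other way, at 31.0, 27.7 and 24.4 CPM. Its log2 ratio of urolithin A to low anxiety was -0.35 (-0.77 to 0.08) there and 0.34 (-0.06 to 0.73) in D1-like neurons. Both intervals include 0.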
